A study of Mus musculus with 20 samples.

Results

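The genes described here encode the subunits of oxidative phosphorylation, the protein complexes of the inner mitochondrial membrane that pass electrons to oxygen and make ATP. They were chosen by symbol: protein-coding mouse genes that start with Nduf, Uqcr, Cox4 to Cox8, Atp5, mt-Nd, mt-Co, mt-Cyt or mt-Atp, together with Sdha to Sdhd, at a mean of at least 5 CPM (counts scaled to a fixed library size) over all libraries. The symbols matched 106 of 27911 genes in the table. Cox7b2 was left out by name and 13 genes lay under 5 CPM, which left 92 members, 79 nuclear and 13 mitochondrial-encoded. Values close to the limit were 4.03 CPM for Cox6b1, outside it, and 8.06 CPM for Ndufaf6 and 9.22 CPM for Ndufb4, inside it. All 92 members also passed the filter on low counts that came before testing.

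RNA-seq of polyadenylated RNA compared 3 Kmt2d+/+ clones with 2 Kmt2d-/- clones of ATDC5, a mouse line that forms cartilage-like cells. The Kmt2d-/- clones carry a deletion of the catalytic SET domain on each allele. Each clone is a distinct stable cell line, and each gave a library before differentiation (day 0, standard growth medium) and a library after 7 days in medium with insulin, transferrin, selenium, ascorbic acid and beta-glycerophosphate (day 7). The 10 libraries, each sequenced on 2 flow cells, held 35792773 to 66237188 counts. Each genotype rests on a few clones, so a difference between genotypes and a difference between clones cannot be told apart beyond the spread that 3 and 2 clones show. In bulk samples, fewer cells of a type and less RNA per cell cannot be told apart.

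Cartilage markers moved with both genotype and day. The summed level of 18 cartilage genes was 61.7 to 430 CPM in Kmt2d+/+ and 2010 to 6201 CPM in Kmt2d-/- libraries at day 0, and 628 to 1302 CPM and 27120 to 31470 CPM at day 7. Epyc was at 0 in all day 0 libraries, and Snorc in the Kmt2d+/+ ones. Osteoblast markers summed to 408 to 839 CPM at day 0 and 1543 to 2410 CPM at day 7, with no gene at 0 throughout a group. The 10 skeletal muscle markers summed to 11.1 CPM or less in every library, with Ckm and Myog at 0 in all 10, and 10 adipocyte markers to 23.5 to 185 CPM. Cfd and Cidea were at 0 in all day 0 libraries. The part of these cell states in the differences below was not tested. Kmt2d itself was at 173 to 211 CPM in Kmt2d+/+ and 113 to 205 CPM in Kmt2d-/- libraries, and a count over the whole gene does not check a deletion within it.

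Complex I (NADH dehydrogenase, the Nduf and mt-Nd genes) and complex II (succinate dehydrogenase, the Sdh genes) feed electrons to ubiquinone. Complex III (cytochrome bc1, the Uqcr genes and mt-Cytb) passes them to cytochrome c, and complex IV (cytochrome c oxidase, the Cox and mt-Co genes) to oxygen. The proton gradient built by complexes I, III and IV drives complex V, the ATP synthase (Atp5 and mt-Atp genes). Most subunits are encoded in the nucleus and imported, while a small hydrophobic set is made inside the organelle from its own genome, so each complex except complex II has parts from both genomes. Chondrocytes in cartilage live at low oxygen and are known to rely strongly on glycolysis.

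By complex, the nuclear members were 36 subunits of complex I (7 of the conserved catalytic core and 29 supernumerary ones), 6 Ndufaf genes, which encode factors that assemble complex I and are not subunits of it, 4 subunits of complex II, 8 of complex III, 9 of complex IV and 16 of complex V. The mitochondrial-encoded members were 7 subunits of complex I, 1 of complex III, 3 of complex IV and 2 of complex V.

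Several members belong to families of related genes or have near-identical copies in the genome, and some of these sequences are shown here. Atp5g1, Atp5g2 and Atp5g3 encode the same mature c subunit, the ring of complex V that turns as protons pass. The last 228 coding bases of the 3 genes are shown in mouse GRCm38 annotation, 5′ to 3′, with the bases that differ between any of them in capitals.
Atp5g1: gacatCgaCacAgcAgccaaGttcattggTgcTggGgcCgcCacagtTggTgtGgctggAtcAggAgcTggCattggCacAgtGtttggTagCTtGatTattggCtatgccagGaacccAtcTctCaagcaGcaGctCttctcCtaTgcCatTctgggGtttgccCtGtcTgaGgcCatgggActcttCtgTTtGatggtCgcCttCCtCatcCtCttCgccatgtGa
Atp5g2: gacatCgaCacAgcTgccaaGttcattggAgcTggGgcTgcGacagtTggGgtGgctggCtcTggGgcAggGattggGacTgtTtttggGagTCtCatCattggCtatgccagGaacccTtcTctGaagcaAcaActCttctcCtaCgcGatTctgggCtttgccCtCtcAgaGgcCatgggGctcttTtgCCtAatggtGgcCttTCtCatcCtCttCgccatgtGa
Atp5g3: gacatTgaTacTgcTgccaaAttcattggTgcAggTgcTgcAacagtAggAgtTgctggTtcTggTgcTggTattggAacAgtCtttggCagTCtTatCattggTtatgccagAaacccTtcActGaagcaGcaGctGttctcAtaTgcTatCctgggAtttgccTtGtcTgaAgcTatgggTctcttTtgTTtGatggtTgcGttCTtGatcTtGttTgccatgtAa
Identity over this stretch was 85.1% between Atp5g1 and Atp5g2, 79.8% between Atp5g1 and Atp5g3 and 78.5% between Atp5g2 and Atp5g3. Of 75 codons 52 differed between at least 1 pair of the genes, and 0 differed in the amino acid.

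Processed copies are closer still. Cox7c encodes a small complex IV subunit, and its whole coding sequence of 192 bases is identical to a stretch of the annotated pseudogene Gm12338 on chromosome 11, so no read within it can be assigned to 1 of the 2 loci by sequence.
Cox7c: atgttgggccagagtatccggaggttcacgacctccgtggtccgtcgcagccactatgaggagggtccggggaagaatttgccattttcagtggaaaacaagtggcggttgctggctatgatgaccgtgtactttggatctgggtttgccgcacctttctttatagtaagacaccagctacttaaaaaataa
Cox6c, another complex IV subunit, differs from the annotated pseudogene Cox6c2 on chromosome 12 at 7 of 231 bases (97.0% identity), given in capitals.
Cox6c: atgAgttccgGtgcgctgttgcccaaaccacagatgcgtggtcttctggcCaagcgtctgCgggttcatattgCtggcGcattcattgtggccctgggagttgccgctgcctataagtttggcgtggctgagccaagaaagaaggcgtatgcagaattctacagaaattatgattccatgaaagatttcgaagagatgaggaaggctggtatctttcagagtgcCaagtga
Cox6c2: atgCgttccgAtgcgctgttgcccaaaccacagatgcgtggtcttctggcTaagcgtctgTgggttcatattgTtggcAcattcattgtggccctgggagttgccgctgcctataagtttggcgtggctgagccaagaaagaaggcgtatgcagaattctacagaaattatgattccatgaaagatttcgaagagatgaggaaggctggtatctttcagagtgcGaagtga
A search of coding sequences, chosen after values had been seen, found 80 copies (at least 90% identity over at least 80% of the coding length) of 41 of the 106 genes. The table held 55 of them, 9 at 5 CPM or more. Of the counts summed over a gene and its copies of at least 1 CPM, the member received 19.9% for Ndufb4, 33.6% for Atp5g2, 45.4% for Atp5l, 45.6% for Ndufs5, 51.6% for Ndufa12, 60.8% for Cox7c, 76.3% for Atp5g1, 77.9% for Cox7a2l and 88.6% for Cox6c. Levels of these genes are therefore uncertain. The share held by Cox7c ranged from 57.9% to 62.4% over the 10 libraries, and that of Atp5g2 from 31.4% to 36.5%.

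Levels were compared between genes as CPM per kb of annotated exon, averaged over the 10 libraries. Mitochondrial-encoded members had a median of 2305 CPM per kb, and nuclear members 39.3. The least abundant mitochondrial mRNA, mt-Nd3 at 219 CPM per kb, was above all nuclear members except Cox6a1 (434), Atp5b (256) and Cox8a (246) on this scale. With the length of each gene's principal transcript, Atp5h, Cox4i1, Atp5g3, Uqcrq and Uqcr10 lay above it too. The most abundant mRNA was mt-Co1, the catalytic subunit of complex IV, at 5109 CPM per kb. The nuclear median was 72.8 with the length of each gene's principal transcript, an alternative chosen after the data were seen.

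Within each complex the most abundant nuclear members per kb were Ndufb11 (125) in complex I, Sdhd (65.5) in complex II, Uqcr10 (167) in complex III, Cox6a1 in complex IV and Atp5b, the catalytic beta subunit, in complex V. The least abundant were Ndufb4 (4.81), Sdhc (25.3), Uqcrc2 (26.8), Cox7a2 (19.5) and Atp5l (6.47), and Ndufb4 and Atp5l have abundant copies. These ranks depend on the length used. With principal transcripts the highest were Ndufa7 (152), Sdhb (94.25) and Uqcrq (239) in complexes I to III, and the lowest Ndufb2 (7.46) in complex I and Atp5g1 (22.1) in complex V, where Atp5l was at 76.7. Cox6a1 and Atp5b stayed highest, and Sdhc, Uqcrc2 and Cox7a2 lowest, in their complexes. Assembly factors ran from 5.78 CPM per kb for Ndufaf7 to 10.2 for Ndufaf1, and from 7.45 (Ndufaf6) to 33.1 (Ndufaf2) with principal transcripts.

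For the Cox4i, Cox6a, Cox6b, Cox7a and Cox8 isoforms compared here, the widely expressed form had the higher level. Cox7b2, left out by name, was not part of this comparison. Cox4i1 had a mean of 304 CPM and its hypoxia- and lung-associated relative Cox4i2 0.2605 CPM. Cox6a1 (304 CPM), Cox7a2 (18.45 CPM) and Cox8a (152 CPM) stood beside Cox6a2 (0.381 CPM), Cox7a1 (0.0427 CPM) and Cox8b (0.0648 CPM), the forms of heart and skeletal muscle. The testis form Cox6b2 was at 0.0105 CPM, and Cox6b1 at 4.03 CPM. Values of 0.203 CPM for Ndufa4 and 0.206 CPM for Cox5b, both complex IV subunits found in most tissues, and of 0.397 CPM for Ndufa4l2 also lay under the limit of 5 CPM. Both genes have near-identical copies in the table, which were at 0.372 CPM for Cox5b and at 0 for Ndufa4. How the authors' counting assigned reads of these 2 genes is not given in the sources used here, so their values cannot be read as absence of the mRNA. A floor of 3 counts corresponds to at most 0.0838 CPM in these libraries and covers counting error only.

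The first comparison set Kmt2d-/- against Kmt2d+/+ clones after 7 days of differentiation, member by member. Most nuclear members had positive values, with the highest median in complex V, and 2 genes passed the test, both of complex V and both higher in Kmt2d-/- clones. They were Atp5mpl, which encodes a small accessory subunit of the ATP synthase, and Atp5g3, the c subunit gene shown above. Over all 15467 genes 1.87% were called, and 2 of 92 members is near that background. Mitochondrial-encoded mRNAs had 0 calls by edgeR, DESeq2 or limma-voom and 0 at an unadjusted p under 0.05.

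Atp5mpl (chromosome 12, 111961375 to 111966977, minus strand, GRCm38) had day 7 levels of 21.3, 17.1 and 18.3 CPM in Kmt2d+/+ clones 1, 2 and 3, against 38.4 and 34.8 CPM in Kmt2d-/- clones 1 and 2. The groups did not overlap, and means were 18.9 ± 2.18 CPM (SD, n = 3) and 36.6 ± 2.58 CPM (SD, n = 2). The difference was 1.93-fold (log2 difference 0.95 with SE 0.17, edgeR adjusted p = 0.0342). At day 0 it was at 15.2, 14.4 and 13.99 CPM against 23.6 and 22.1 CPM, again without overlap (0.65, SE 0.17, edgeR adjusted p = 0.0743).

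Atp5g3 (chromosome 2, 73908447 to 73911326, minus strand) was at 145, 168 and 145 CPM in Kmt2d+/+ clones at day 7, against 246 and 230.4 CPM in Kmt2d-/- clones. Both Kmt2d-/- clones stood above all Kmt2d+/+ clones (1.56-fold, log2 difference 0.64 with SE 0.13, edgeR adjusted p = 0.0482). At day 0 the 3 Kmt2d+/+ clones lay within 153 ± 0.444 CPM (SD, n = 3) and the Kmt2d-/- clones at 172 and 166 CPM (0.14, SE 0.13, edgeR adjusted p = 0.600). The other genes of the c subunit did not pass. Atp5g1 was at 111, 90.04 and 93.4 against 114 and 126 CPM (0.29, SE 0.15), and Atp5g2 at 38.5, 32.5 and 28.0 against 39.7 and 30.9 CPM (0.10, SE 0.20).

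Both calls sit close to the threshold. Atp5mpl passed in 8 of 15 alternatives and Atp5g3 in 6 of 15, with adjusted p up to 0.228 and 0.276. Atp5mpl was lost whichever clone was left out, and Atp5g3 was lost unless the clone left out was Kmt2d+/+ clone 2. Log2 fold changes then stayed at 0.87 to 1.05 and 0.59 to 0.72. DESeq2, which called 10.4% of genes with an adjusted p, called 5 members (Atp5mpl, Atp5g3, Ndufv1, Ndufs8 and Uqcrfs1, all higher), and limma-voom, which called 3.45%, the same 2 as edgeR.

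**Figure D1:**
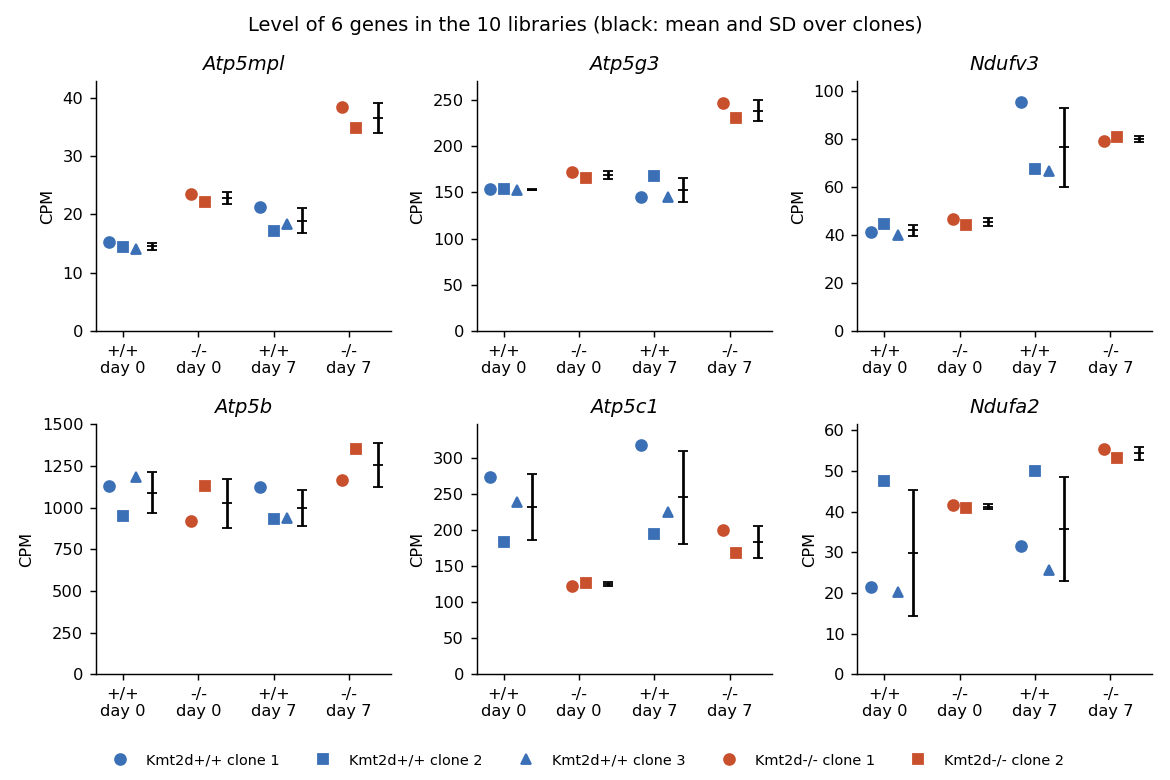
Levels (CPM, counts scaled to the adjusted library size, linear axis from 0) of 6 members in the 10 libraries, 1 symbol per clone, with the mean and SD over clones in black. Atp5mpl and Atp5g3 lie higher in both Kmt2d-/- clones at day 7, Ndufv3 is higher at day 7 in all 5 clones, and for Ndufa2 Kmt2d+/+ clone 2 stands apart from the other Kmt2d+/+ clones.

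Among nuclear members, 56 of 79 had a positive genotype difference at day 7 and the median log2 fold change was 0.13, beside -0.02 over all genes tested. Relative to the Kmt2d+/+ mean, clone medians were 0.13, -0.04 and -0.07 in Kmt2d+/+ clones 1 to 3. They were 0.14 and 0.14 in the Kmt2d-/- clones, so Kmt2d+/+ clone 1 lay at the level of the Kmt2d-/- clones. At an unadjusted p under 0.05, 12 were higher and 0 lower (15.2%, beside 19.9% of all genes). Complex V had a median of 0.32 with 14 of 16 positive, complex III 0.28 with 5 of 8, complex I 0.12 with 25 of 36, complex IV 0.10 with 6 of 9 and complex II -0.04 with 2 of 4. Mitochondrial-encoded members had a median of 0.05 with 10 of 13 positive.

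Counted by clones, in a pattern chosen after values had been seen, 30 of 79 nuclear members (37.97%) were higher in both Kmt2d-/- clones than in all 3 Kmt2d+/+ clones at day 7, against 17.9% of all genes. The reverse held for 4 (Ndufa5, Ndufaf6, Uqcrc1 and Uqcrc2) against 19.8% of all genes. The 30 included 9 of 16 complex V members, 5 of 8 of complex III, 12 of 36 of complex I and 3 of 9 of complex IV, but 0 of 4 of complex II. With each clone left out in turn the higher count was 30 to 42 and the lower count 5 to 13, with 9 and 7 without Kmt2d+/+ clones 2 and 3 and 13 and 11 without Kmt2d-/- clones 1 and 2. Shares of all genes then rose too, to between 21.2% and 30.0% for higher ones. For lower ones the share was 27.3% without Kmt2d+/+ clone 1.

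Uqcrfs1, the Rieske iron-sulfur protein of complex III, and Ndufv1, the subunit of complex I that binds NADH, had larger differences at day 7 than Atp5g3 but did not pass. Uqcrfs1 was at 82.2, 61.5 and 63.1 against 109 and 114 CPM (log2 difference 0.70 with SE 0.20, edgeR adjusted p = 0.1004). Ndufv1 was at 97.5, 73.8 and 89.0 against 139 and 140.1 CPM (0.69, SE 0.18, edgeR adjusted p = 0.0862). Neither gene's groups overlapped. Downward, Ndufaf6, an assembly factor, was at 6.51, 11.2 and 9.41 against 5.91 and 5.50 CPM (-0.66, SE 0.33, edgeR adjusted p = 0.298). Atp5c1, the gamma subunit that forms the rotating stalk of complex V, was at 318, 194 and 225 against 199.6 and 168 CPM (-0.42, SE 0.24, edgeR adjusted p = 0.385), and its groups overlapped through Kmt2d+/+ clone 2.

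The second comparison, between genotypes at day 0, shares no library with that at day 7 but the same clones. By edgeR 0 of 92 members passed, where 2.15% of all genes did, and by limma-voom 0, where 1.72% did. At an unadjusted p under 0.05, 4 nuclear members were higher and 8 lower (15.2%, beside 20.2% of all genes). DESeq2, with 11.0% of genes called, called 6, namely Atp5mpl higher and Atp5c1, Ndufa5, Uqcrc1, Cox5a and Cox7b lower. The nuclear median was 0.03 with 43 of 79 positive, and the mitochondrial median was -0.04 with 5 of 13 positive, beside 0.01 over all genes.

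The clone pattern was reversed in balance at day 0. Higher in both Kmt2d-/- clones were 9 of 79 nuclear members (11.4%, against 18.6% of all genes), and lower were 20 (25.3%, against 18.3%). The 20 held 4 of 9 complex IV members (Cox5a, Cox6c, Cox7a2 and Cox7b) and 3 of 8 of complex III. Both counts depended on the clones, as did the shares of all genes. Without Kmt2d+/+ clone 1, 12 were higher (15.2%, against 22.0% of all genes) and 24 lower (30.4%, against 23.05%). Without Kmt2d+/+ clone 2 these counts were 20 (25.3%, against 28.5%) and 25 (31.6%, against 27.2%), and without Kmt2d+/+ clone 3 they were 14 (17.7%, against 21.65%) and 21 (26.6%, against 21.2%). Without Kmt2d-/- clone 1 they were 23 (29.1%, against 32.3%) and 24 (30.4%, against 30.8%), so the excess of lower members was gone. Without Kmt2d-/- clone 2 they were 21 (26.6%, against 31.5%) and 28 (35.4%, against 31.3%).

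Atp5c1 had the most negative value at day 0, at 274, 183 and 239 CPM in Kmt2d+/+ and 123 and 127 CPM in Kmt2d-/- clones, without overlap (log2 difference -0.90 with SE 0.25, edgeR adjusted p = 0.0884). Cox5a, a nuclear subunit of complex IV, was at 111, 94.0 and 88.3 against 68.5 and 59.98 CPM (-0.61, SE 0.19, edgeR adjusted p = 0.123). Uqcrc1, a core protein of complex III singled out after its values were seen, was at 146, 153 and 148 CPM against 112 and 112 CPM (-0.41, SE 0.14, edgeR adjusted p = 0.143).

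One Kmt2d+/+ clone stood apart for a member outside the naming rule, Ndufa2, a supernumerary complex I subunit. It was at 21.6, 47.6 and 20.2 CPM in Kmt2d+/+ and at 41.6 and 40.8 CPM in Kmt2d-/- clones at day 0, and at 31.6, 49.95 and 25.5 against 55.4 and 53.1 CPM at day 7. Without Kmt2d+/+ clone 2 it passed at day 0 (log2 fold change 0.98, edgeR adjusted p = 0.0262) together with Atp5c1 (-1.04, 0.0381), and at day 7 (0.92, 0.0463) together with Atp5g3. With all clones, Ndufa2 had log2 fold changes of 0.47 at day 0 and 0.60 at day 7. The 102 tested genes within 5 Mb of it on chromosome 18 had medians of 0.39 and 0.40. Genotype and a regional difference between clones cannot be told apart for it.

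Genotype differences of nuclear members followed those of the genes that lie around them on the chromosome. This relation was examined after values had been seen, using the median log2 fold change of all other tested genes within 5 Mb, with members left out of the neighbours. Across the 79 nuclear members, Pearson's r between a member's genotype difference and that of its neighbours was 0.79 at day 7 (Spearman 0.77) and 0.69 at day 0 (Spearman 0.66). Over 10465 genes at a mean level of 5 CPM or more and 10 or more neighbours the same r was 0.31 on both days (Spearman 0.46 and 0.42). These values describe genes and not replicates: all points come from the same 10 libraries, and members close to each other share neighbours.

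Atp5mpl had a log2 fold change of 0.95 at day 7 where its 69 neighbours had a median of 0.76, and 0.65 at day 0 where they had 0.80. Atp5mpl lies in the part of chromosome 12 beyond 40 Mb, which earlier results of these data had marked, and whose 374 tested genes had a median of 0.67 at day 7 and 0.72 at day 0. The medians of this region in single clones were 0.69 and 0.63 in Kmt2d-/- clones 1 and 2 and -0.04 to 0.06 in Kmt2d+/+ clones at day 7. Uqcrfs1 lies in a region of chromosome 13 (up to 60 Mb) with a median of 0.39 at day 7 and 0.46 at day 0, and its 43 nearest neighbours had 0.52 at day 7. Ndufa3 lies in a region of chromosome 7 (up to 20 Mb) with 0.62 and 0.50. In Kmt2d-/- clones 1 and 2 the day 7 medians were 0.19 and 0.52 for the chromosome 13 region and 0.73 and 0.35 for that of chromosome 7. Ndufa3 itself was at 9.62, 8.66 and 9.10 CPM in Kmt2d+/+ and 18.6 and 9.19 CPM in Kmt2d-/- clones at day 0. At day 7 it was at 14.9, 11.0 and 15.3 against 27.3 and 12.7 CPM. Kmt2d-/- clone 2 thus lay within the Kmt2d+/+ range on both days. Ndufv1 and Ndufs8, close together on chromosome 19, had 0.69 and 0.65 at day 7 where their neighbours had 0.45 and 0.47. Atp5c1, at -0.42 and -0.90 on the 2 days, had neighbours at -0.51 and -0.49. Atp5g3 lies outside the 3 marked regions, and Atp5mpl, the other member that passed at day 7, lies in 1 of them. An effect of genotype and a difference in these chromosome regions between the clones cannot be told apart for such genes.

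Against their neighbours, members lay higher at day 7 and not at day 0. Of 79 nuclear members 68 were above their neighbours' median at day 7, by a median of 0.19, and 37 of 79 at day 0, where the median difference was -0.01. Over genes at a mean level of 5 CPM or more the share above was 53.0% at day 7 and 50.6% at day 0. Atp5g3 was at 0.64 where its neighbours were at 0.24, Atp5k, a membrane-anchored subunit of complex V, at 0.61 where they were at 0.03, and Atp5e, a subunit of its central stalk, at 0.68 where they were at 0.14. Cox7a2l, which takes part in joining complexes into supercomplexes, was at 0.45 where they were at -0.17. Its level at day 7 was 86.9, 58.3 and 59.4 CPM in Kmt2d+/+ and 95.5 and 91.0 CPM in Kmt2d-/- clones (SE 0.19, edgeR adjusted p = 0.222). Several of the genes in this paragraph were singled out after their values were seen.

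**Figure D2:**
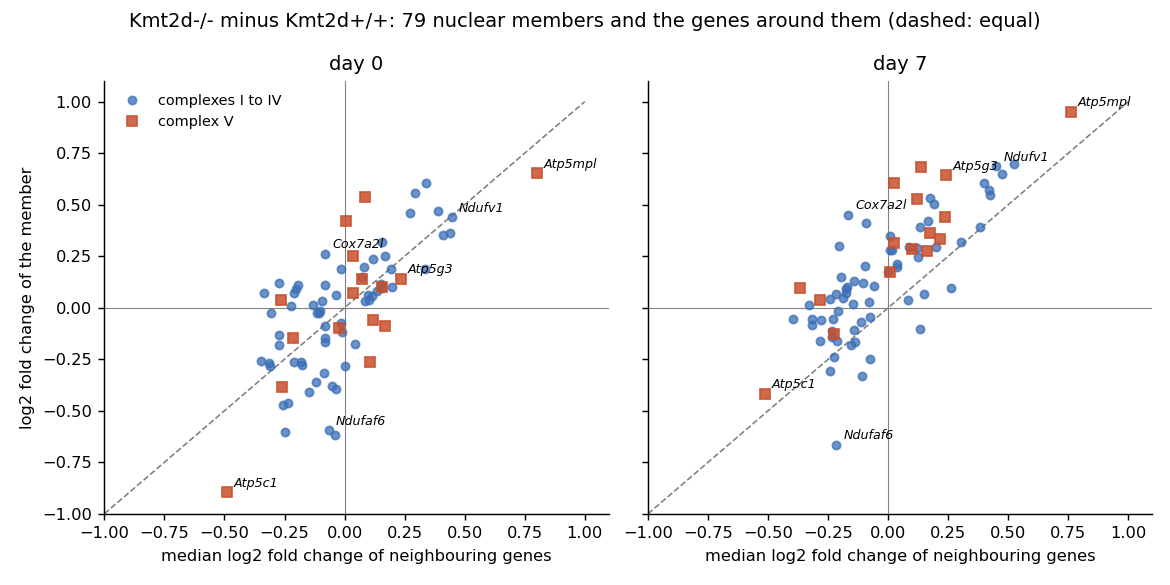
Log2 fold change (Kmt2d-/- minus Kmt2d+/+) of each of the 79 nuclear members against the median of the tested genes within 5 Mb of it, at day 0 (left) and day 7 (right), with complex V as squares and all other nuclear members, assembly factors included, as circles. Members whose neighbours have higher medians tend to lie higher on both days, and at day 7 68 of 79 lie above the dashed line of equality.

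The third comparison asked how members differed between day 7 and day 0 in Kmt2d+/+ clones. Of 79 nuclear members 60 had positive values, with the highest median in the supernumerary subunits of complex I. Of the 13 mitochondrial-encoded genes 10 had negative values. By edgeR 1 member rose, Ndufv3, a small supernumerary subunit next to the NADH-binding site of complex I, where 5.08% of all genes were called. Limma-voom, with 5.08% of genes called, called the same gene. DESeq2, with 15.1%, called 6: Ndufv3, Ndufa6, Ndufa7, Ndufa13 and Ndufaf7 higher and Ndufaf4 lower.

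Ndufv3 (chromosome 17, 31520115 to 31531331, plus strand) was at 41.1, 44.7 and 40.2 CPM at day 0, against 95.4, 67.5 and 66.6 CPM at day 7 in Kmt2d+/+ clones 1, 2 and 3. Every day 7 value was above every day 0 value (log2 difference 0.87 with SE 0.16, edgeR adjusted p = 0.0266). It passed in 12 of 16 alternatives. It was lost without Kmt2d+/+ clone 1 (log2 fold change 0.66), without Kmt2d+/+ clone 3 (0.91) and without either Kmt2d-/- clone (0.86 and 0.87), which enter through the shared spread, with edgeR adjusted p up to 0.240. In Kmt2d-/- clones it was at 46.5 and 44.2 CPM at day 0, against 79.03 and 80.9 CPM at day 7 (0.82, SE 0.20, edgeR adjusted p = 0.0908).

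With a term for each clone, which compares the days within a clone, 11 members were called in Kmt2d+/+ clones, where 18.0% of all genes were. Higher were Ndufv3, Ndufa13, Ndufaf7, Ndufa6, Ndufa3, Sdhc, Atp5k, Atp5j2 and Atp5l, and lower were Ndufaf4 and mt-Nd6. Ndufa13, a supernumerary subunit also known as GRIM-19, was at 46.1, 69.2 and 55.8 CPM at day 0, against 90.8, 97.5 and 81.8 CPM at day 7 (log2 difference 0.67 with SE 0.13, edgeR adjusted p = 0.0265 with the clone term). Ndufaf4, a factor for an early step of complex I assembly, was at 39.1, 50.3 and 57.3 CPM at day 0, against 19.4, 38.4 and 29.1 CPM at day 7 (-0.79, SE 0.15, edgeR adjusted p = 0.0244 with the clone term, and 0.105 without it).

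The same comparison in Kmt2d-/- clones gave 0 calls among members by edgeR (1.27% of all genes) and 0 by limma-voom (1.16%), with 23 of 79 nuclear members higher and 0 lower at an unadjusted p under 0.05, beside 14.8% of all genes in either direction. DESeq2, with 6.53% of genes called, called 7, all higher: Atp5mpl, Ndufv3, Atp5g3, Cox7b, Cox7a2, Uqcr11 and Ndufb9. With a term for each clone Atp5k was called, where 5.57% of all genes were (log2 difference 0.81 with SE 0.15, edgeR adjusted p = 0.0410). Its level was 53.2 and 38.4 CPM at day 0, against 94.3 and 66.9 CPM at day 7, so both day 7 values lay above both day 0 values.

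Medians of the day difference were 0.17 in Kmt2d+/+ and 0.40 in Kmt2d-/- clones for nuclear members, with 60 and 70 of 79 positive, beside 0.03 and -0.00 over all genes. Complex V had 0.14 and 0.48, with 11 and 16 of 16 positive, complex IV 0.22 and 0.44, complex III 0.06 and 0.37, and complex II 0.18 and 0.28. The 29 supernumerary subunits of complex I had 0.29 and 0.43, and its 7 core subunits 0.05 and 0.16. The 6 assembly factors had -0.15 and -0.11. Clone medians over nuclear members were 0.34, 0.14 and 0.07 in Kmt2d+/+ clones and 0.39 and 0.40 in Kmt2d-/- clones, so Kmt2d+/+ clone 1 lay nearer to the Kmt2d-/- clones than to the other Kmt2d+/+ clones.

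**Figure D3:**
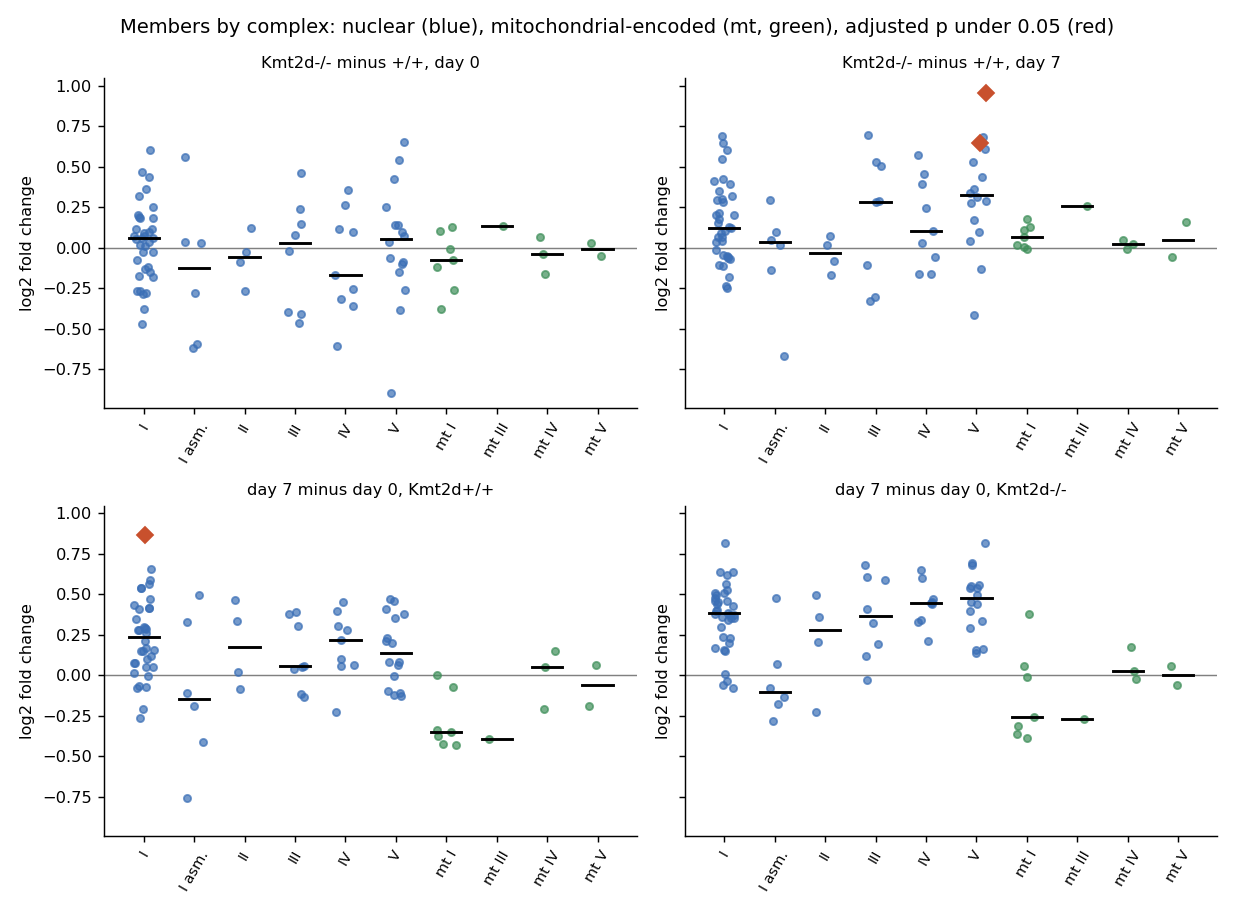
Log2 fold changes of all 92 members in 4 comparisons, 1 point per gene, grouped by complex (I asm., assembly factors of complex I), with black bars at the medians and red diamonds for genes at an edgeR adjusted p under 0.05. Complex V lies highest in the genotype difference at day 7 (median 0.32) and in the day difference of Kmt2d-/- clones (0.48), and mitochondrial complex I members lie below 0 in the day difference of Kmt2d+/+ clones (-0.35).

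Counted by clones, 45 of 79 nuclear members (57.0%) were higher at day 7 in all 5 clones, against 20.2% of all genes, and 2 (Ndufaf4 and Uqcrc1) were lower in all 5, against 18.8%. The 45 held 24 of 36 complex I subunits, 6 of 9 of complex IV, 8 of 16 of complex V, 4 of 8 of complex III and 2 of 4 of complex II. With a clone left out the count was 45 to 52 and the lower count 2 to 6, reaching 4 without Kmt2d+/+ clone 1 and 6 without Kmt2d-/- clone 1. Without Kmt2d+/+ clone 1 the shares of all genes were 22.3% for higher and 21.3% for lower ones. Shorter members tended to have larger day differences. Spearman's rho between exon length and log2 fold change across the 79 nuclear members was -0.28 in Kmt2d+/+ and -0.31 in Kmt2d-/- clones, and -0.05 and -0.12 across all genes tested. The part of transcript length in the difference was not tested.

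Whether the day difference itself depended on genotype was tested as an interaction. No member passed by edgeR, with or without the clone term, by limma-voom or by DESeq2. Calls over all genes were 0.0% in the edgeR and limma-voom fits and 0.203% in DESeq2. At an unadjusted p under 0.05 were Atp5g3 (0.50, SE 0.19) and Atp5g1 (0.55, SE 0.21), 2 of 79 nuclear members beside 3.67% of all genes. The median interaction was 0.20 over nuclear members with 68 of 79 positive, beside -0.03 over all genes. All 16 complex V members, all 9 of complex IV and all 8 of complex III had positive values. The larger medians in Kmt2d-/- clones are therefore given side by side, and no member's day difference was shown to differ between the genotypes. A day difference of one sign in all Kmt2d+/+ clones and the other in both Kmt2d-/- clones was found for 2 of 92 members (Atp5b and Ndufv1), or 2.17%, against 4.84% of all genes.

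Mitochondrial-encoded mRNAs followed their own order. They are cut from long transcripts that cover most of the circular genome, and all but mt-Nd6 lie on the same strand. Each gene is counted on its own here. However, mt-Atp8 (7766 to 7969) overlaps mt-Atp6 (7927 to 8607), and mt-Nd4l (9877 to 10173) overlaps mt-Nd4 (10167 to 11544). The 13 genes are therefore not independent of each other. None was called in any comparison by edgeR without the clone term, and 6 of 13 were lower at day 7 in all 5 clones (46.2%, against 18.8% of all genes): mt-Nd4l, mt-Nd4, mt-Nd5, mt-Nd6 and mt-Cytb, which are neighbours at the end of the gene order, and mt-Atp8. None was higher in all 5. The place of mt-Atp8 among the 6 rests on a difference of -0.00194 on the log2 scale in Kmt2d-/- clone 1 (678.6 CPM at day 0, 677.7 CPM at day 7). The count of 6 became 7 without Kmt2d-/- clone 1 and stayed at 6 without any other clone.

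The cytochrome b mRNA mt-Cytb was at 3419, 3294 and 3618 CPM at day 0, against 3036, 1891 and 2956 CPM at day 7 in Kmt2d+/+ clones. In Kmt2d-/- clones it was at 4451 and 3108 CPM at day 0, against 3998 and 2275 CPM at day 7. Clone differences on the log2 scale were -0.17, -0.80 and -0.29 in Kmt2d+/+ clones 1 to 3 and -0.15 and -0.45 in Kmt2d-/- clones (edgeR log2 fold changes -0.39, SE 0.26, adjusted p = 0.397, and -0.27, SE 0.32, adjusted p = 0.781). Over the 5 genes from mt-Nd4l to mt-Cytb, Kmt2d+/+ clone 2 ran from -0.61 to -0.80, and the other 4 clones from -0.15 to -0.45.

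The first 8 genes in the order had no sign shared by all 5 clones, except mt-Atp8. For mt-Co1 the levels were 7567, 7751 and 7575 CPM at day 0, against 9040, 6758 and 7904 CPM at day 7 in Kmt2d+/+ clones, and 9072 and 6930 CPM and then 9587 and 6744 CPM in Kmt2d-/- clones. mt-Nd3, a small complex I subunit, was higher at day 7 in 4 clones by 0.29 to 0.45 on the log2 scale and had a difference of -0.46 in Kmt2d+/+ clone 1. mt-Co2 was at 2386 CPM at day 0 and 1464 CPM at day 7 in Kmt2d+/+ clone 1, a difference of -0.70, while the other clones ran from -0.12 to 0.25. Neighbouring mitochondrial genes overlap or abut, and whether counting used strand is not given in the sources used here, so reads of mt-Nd6 and of the strand opposite to it cannot be told apart. With the clone term mt-Nd6 passed in Kmt2d+/+ clones (-0.44, SE 0.12, edgeR adjusted p = 0.0499). Its levels there were 476, 411 and 456 CPM at day 0, against 366, 262 and 374 CPM at day 7.

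**Figure D4:**
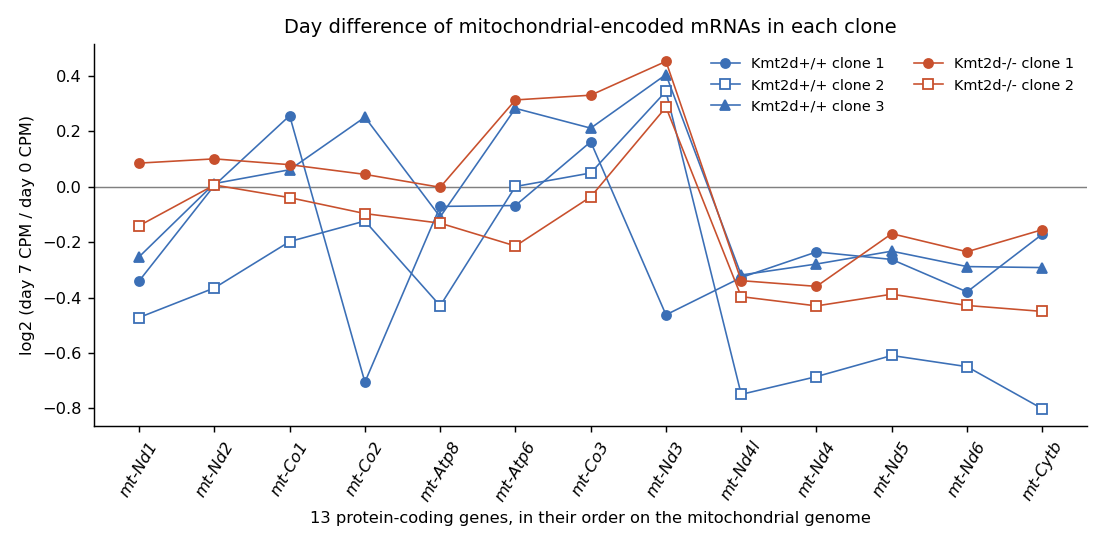
Day difference (log2 of day 7 CPM over day 0 CPM, vertical axis) of the 13 mitochondrial-encoded genes in each of the 5 clones, 1 line per clone. Genes are in their order on the mitochondrial genome. From mt-Nd4l to mt-Cytb all 5 clones lie below 0, and Kmt2d+/+ clone 2 lies lowest.

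Between genotypes the mitochondrial mRNAs overlapped. On either day 0 of 13 were higher and 0 lower in both Kmt2d-/- clones than in all Kmt2d+/+ clones. Of all genes 17.9% were higher and 19.8% lower in this way at day 7, and 18.6% and 18.3% at day 0. The 2 Kmt2d-/- clones differed from each other. At day 7 the median over the 13 genes, relative to the Kmt2d+/+ mean, was 0.33 in clone 1 and -0.20 in clone 2. It was 0.21, -0.34 and 0.20 in the Kmt2d+/+ clones. Without Kmt2d-/- clone 2, 10 of 13 were higher in clone 1 than in all Kmt2d+/+ clones at day 7 and 6 at day 0, where 30.0% and 31.5% of all genes were. Without Kmt2d-/- clone 1, 3 of 13 were lower in clone 2 at day 7 and 6 at day 0, where 30.4% and 30.8% were.

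As a share of all counts, the 79 nuclear members together took 0.594% to 0.728% at day 0 and 0.776% to 0.865% at day 7, and the share was higher at day 7 in each of the 5 clones. Group means were 0.699 ± 0.0135% (SD, n = 3) and 0.661 ± 0.0944% (SD, n = 2) in Kmt2d+/+ and Kmt2d-/- clones at day 0 and 0.807 ± 0.04999% and 0.838 ± 0.0247% at day 7. The 13 mitochondrial-encoded members took 1.98% to 2.93%. Their share was lower at day 7 than at day 0 in Kmt2d+/+ clone 2 (2.37% to 1.98%) and Kmt2d-/- clone 2 (2.46% to 2.07%), and higher in the other 3 clones (2.78% to 2.83%, 2.69% to 2.93% and 2.62% to 2.80%). The ranges of the 2 genotypes overlapped for both shares on both days.

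**Figure D5:**
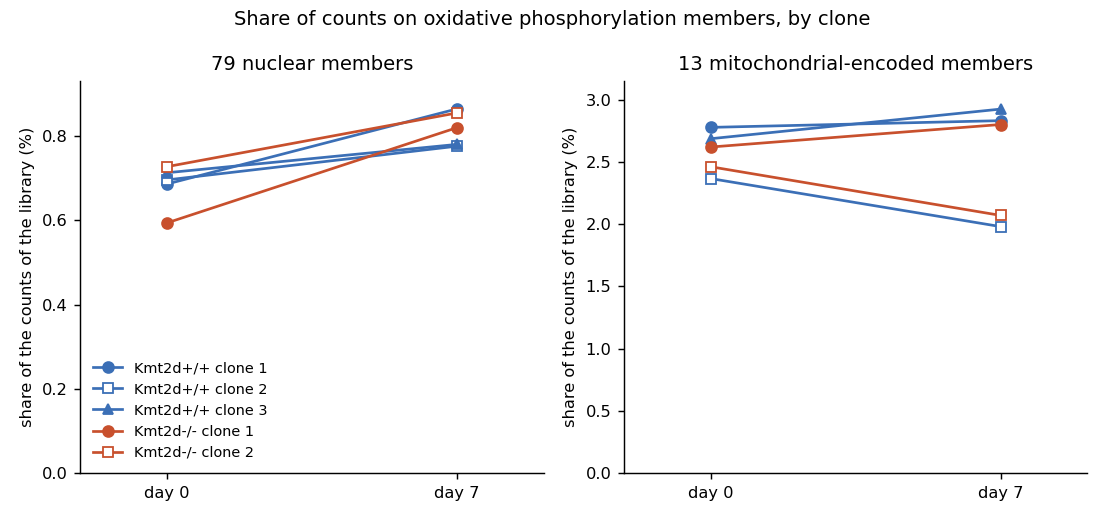
Share of each library's counts (%, axis from 0) on the 79 nuclear members (left) and the 13 mitochondrial-encoded members (right) at day 0 and day 7, 1 line per clone. The nuclear share is higher at day 7 in all 5 clones, and the mitochondrial share goes down in clone 2 of each genotype and up in the other 3 clones.

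Other genes of mitochondrial energy metabolism were taken from lists drawn up by function. Calls in these lists stand beside the edgeR shares over all genes. These were 1.87% and 2.15% between genotypes at day 7 and day 0, and 5.08% and 1.27% for the day difference in Kmt2d+/+ and Kmt2d-/- clones. Among 47 assembly factors outside the symbol rule 0 passed in any comparison by edgeR, and their medians were 0.03 between genotypes at day 7 and 0.07 and 0.14 for the day difference in Kmt2d+/+ and Kmt2d-/- clones. Of 77 mitochondrial ribosomal protein genes 1 passed, Mrps28, lower in Kmt2d-/- clones at day 0 (-1.15, SE 0.23, edgeR adjusted p = 0.0442). Their medians were 0.00, -0.06 and 0.07 in the same order, under those of the nuclear subunits. Among 22 carriers of electrons, ATP and phosphate 1 fell by day 7 in Kmt2d+/+ clones, Pdss1, which makes the side chain of ubiquinone (-1.14, SE 0.26, edgeR adjusted p = 0.0442). The ATP carrier Slc25a4 and cytochrome c, Cycs, did not pass.

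Of 33 genes for mitochondrial transcription, RNA handling and replication, Slirp, an RNA-binding partner that stabilises mitochondrial mRNA, was higher in Kmt2d-/- clones at day 0 (0.96, SE 0.20, edgeR adjusted p = 0.0486). Slirp lies in the same chromosome 12 region as Atp5mpl, with a median of 0.72 on that day, so the limit given for Atp5mpl holds for it too. By day 7 in Kmt2d+/+ clones Polg, the mitochondrial DNA polymerase, fell (-0.61, SE 0.12, edgeR adjusted p = 0.0334) and Hsd17b10, a subunit of mitochondrial RNase P, rose (0.71, SE 0.15, edgeR adjusted p = 0.0348). Tfam, which packages and transcribes mitochondrial DNA, was at 36.8 to 63.2 CPM and did not pass. Among 21 import and cristae genes, Tomm40, the channel of the outer membrane, was at 34.5, 42.0 and 32.3 CPM in Kmt2d+/+ and 75.8 and 75.97 CPM in Kmt2d-/- clones at day 7 (1.07, SE 0.15, edgeR adjusted p = 0.0205). Tomm40 lies in the marked region of chromosome 7, whose median was 0.62 at day 7, and a regional difference between clones cannot be told apart from genotype there. It fell by day 7 in Kmt2d+/+ clones (-0.62, SE 0.14, edgeR adjusted p = 0.0416).

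Of 20 regulators of mitochondrial biogenesis 2 passed between genotypes at day 7, where 1.87% of all genes did. Both genes lie in the marked region of chromosome 12 (median 0.67 at day 7 and 0.72 at day 0), so genotype and a regional difference between clones cannot be told apart for them. Hif1a, the oxygen-regulated transcription factor, was at 175, 195 and 154 CPM in Kmt2d+/+ and 416.5 and 475 CPM in Kmt2d-/- clones (1.35, SE 0.21, edgeR adjusted p = 0.0252). Yy1, a zinc-finger factor with sites in promoters of respiratory genes, was at 66.5, 76.3 and 69.7 against 123 and 106.5 CPM (0.69, SE 0.14, edgeR adjusted p = 0.0453), and it also passed at day 0 (0.67, SE 0.14, edgeR adjusted p = 0.0445). Ppargc1a, the coactivator PGC-1alpha, was at 7.60, 8.46 and 2.14 CPM against 45.4 and 52.3 CPM at day 7 (3.01, SE 0.91, edgeR adjusted p = 0.119). Nrf1, at 31.1 to 47.1 CPM in all libraries, did not pass.

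Glycolysis, the cytosolic route to ATP, had 22 genes in its list, of which 3 rose by day 7 in Kmt2d+/+ clones: Pfkm and Pfkp, phosphofructokinases (1.09 and 0.77, edgeR adjusted p = 0.0326 and 0.0416), and the aldolase gene Aldoc (3.88, edgeR adjusted p = 0.0303). In that comparison 5.08% of all genes were called. Aldoc also rose in Kmt2d-/- clones (5.40, edgeR adjusted p = 0.0439), where 1.27% were called. All 22 had positive values there, with a median of 0.49 beside 0.40 for the nuclear subunits, and the genotype difference at day 7 had a median of 0.39 with 17 of 22 positive and 0 passing by edgeR. Of 21 genes of the tricarboxylic acid cycle and pyruvate entry 1 rose by day 7 in Kmt2d+/+ clones, Ogdh (0.96, SE 0.21, edgeR adjusted p = 0.0381), and the medians were -0.01 between genotypes at day 7 and -0.09 and 0.13 for the day difference.

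Promoters of nuclear members were searched for 3 motifs, chosen after values had been seen, in RefSeq windows of GRCm38.p6 from 250 bases before to 50 bases after the start, on both strands. Of the 79 nuclear members 66 matched the table, with 71 promoters. The NRF1 motif (GCGCA and GCGC with any 1 base between them) was in 28.2% of them and in 4.60% of all 32851 promoters. The motif of ETS factors such as GABP (CCGGAAG) was in 22.5% against 8.86%, and that of YY1 (AANATGGCG) in 14.1% against 2.38%. A match describes the letters of a window and is not a measured site. All promoters served for comparison, with no set matched in base composition or expression. The part of these in the shares was not tested.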

How the data were processed

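Polyadenylated RNA of 10 libraries was counted per gene. The authors deposited estimated counts from Salmon on GRCm38, per the submitters' processing notes, which also name edgeR, limma and DESeq2 without versions. How transcripts were annotated and whether strand was used is not given in the sources used here. Each library had 2 flow-cell runs (correlation 0.989 to 0.992), which were summed and rounded to whole numbers. Gene symbols, lengths and coordinates are from GENCODE vM21, and 481 identifiers had no symbol. The members and gene lists were chosen with earlier results of these data known.

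Genes passing edgeR's filterByExpr (15467) were fitted in edgeR 4.0.16 (R 4.3.3) with TMM scaling, 4 group means over all 10 libraries, and quasi-likelihood tests with Benjamini-Hochberg adjustment over all genes at 0.05. This adjusted p is the one printed for edgeR. Clones are distinct lines per the labels, and p-values measure the spread between these clones. CPM use the TMM-adjusted library size, and shares of counts the plain total. Alternatives were DESeq2 1.42.0, limma-voom (limma 3.58.1), other scalings and filters, single flow-cell runs, a clone term, and leaving out single clones. Copies of coding sequences were found with blastn 2.17.0. The fitting was tested on simulated data.

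The same clonal line gave the day 0 and the day 7 library, so replicate numbers pair libraries across days. Deviations from group means correlated within clones at 0.36 to 0.57, over genes.

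Named genes were all mitochondrial-encoded members, members that passed, the 3 highest and 3 lowest nuclear log2 fold changes per comparison, the most and least abundant nuclear member of each complex, isoform families, and, for each other list, the passing genes with the 2 smallest p per comparison or else its most abundant gene. Genes outside this rule (among them Ndufa2, Ndufs8, Uqcrc1, Atp5e and Ndufa6) were chosen after their values were seen, as were the patterns over clones, the neighbour windows, the copies, the motifs and the relation to length.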

Additional observations from a re-analysis of the deposited data

Results flagged for a closer look

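For 2 members the day difference had one sign in every Kmt2d+/+ clone and the other in every Kmt2d-/- clone, which is 2.17% of 92 members beside 4.84% of all 15467 genes tested. Atp5b, the catalytic beta subunit of complex V, was at 1133, 953 and 1187 CPM at day 0, against 1123, 929.8 and 940.5 CPM at day 7 in Kmt2d+/+ clones, lower in each. In Kmt2d-/- clones it went from 922 and 1131 CPM to 1165 and 1352 CPM. The interaction was 0.42 (SE 0.25, edgeR adjusted p = 1.0).

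Ndufv1, the NADH-binding subunit of complex I, was lower at day 7 in each Kmt2d+/+ clone (98.65, 76.2 and 99.9 CPM to 97.5, 73.8 and 89.0 CPM) and higher in each Kmt2d-/- clone (113.5 and 135 CPM to 139 and 140.1 CPM). Its interaction was 0.25 (SE 0.26, edgeR adjusted p = 1.0). Neither difference between the genotypes passed the test.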

How the results depend on the processing

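The number of members called moved with the setting. For the genotype difference at day 7 (2 members) it was 5 with DESeq2, 1 with DESeq2 size factors and 1 with no filter. It was 0 with flow-cell run 1 alone, 1 with run 2 alone and 0 with only the groups compared. With a Kmt2d+/+ clone left out it was 0 to 2. Atp5mpl lies in 1 of the 3 chromosome regions, so the number without members of these regions is 1, with no new fit. For day 0 (0 members) it was 6 with DESeq2 and 0 to 2 with a clone left out. For the day difference in Kmt2d+/+ clones (1 member) it was 6 with DESeq2, 2 with a mean of at least 5 CPM, 11 with the replicate block (a term for each clone) and 0 to 1 with a clone left out. In Kmt2d-/- clones (0 members) it was 7 with DESeq2 and 1 with the replicate block. The block moved no count of the interaction. The cause of these shifts was not tested.

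With a clone left out, nuclear members lower in Kmt2d-/- clones at day 7 numbered 5 to 13, those higher at day 0 12 to 23, and those lower at day 7 than at day 0 in all clones 2 to 6. Mitochondrial members higher in Kmt2d-/- clones at day 7 numbered 0 to 10 and lower 0 to 3, at day 0 0 to 6 each way, and higher at day 7 in all clones 0 to 1. With fewer clones each pattern is easier to meet, and shares of all genes rose too. Without Kmt2d+/+ clone 1 the share higher in Kmt2d-/- clones at day 7 went from 17.9% to 23.9%, and lower from 19.8% to 27.3%. The share higher at day 0 went from 18.6% to 22.0%, and the share lower at day 7 in all clones from 18.8% to 21.3%. Of 1478 alternative values for named genes 1444 stayed on their side of the threshold, 20 lost it and 14 gained it. Adding the counts of near-identical copies gave the same calls.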
